A study of Homo sapiens with 2 samples.

Results

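Rab GTPases are small membrane-bound switches of vesicle transport. The 58 genes described here are those whose symbol is RAB followed by a number and at most a letter and a further digit, out of 21115 genes with a value. They were compared in HCT116, an established human colorectal carcinoma cell line, after 8 h with 1 µM CB-5083, against the solvent DMSO. The compound blocks p97, an ATPase (gene VCP) known for unfolding ubiquitinated proteins, those of the ER membrane among them, ahead of the proteasome. Each treatment was 1 stranded mRNA library from the same line with no stated genetic change, so the differences below have no check between replicates and none was tested. The labels do not say how many cultures a library holds.

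A Rab protein cycles between a GDP-bound form, which the carrier protein GDI keeps soluble, and a GTP-bound form, which sits on a membrane by geranylgeranyl anchors and recruits effectors such as tethers and motors. Exchange factors load GTP and GTPase-activating proteins end the cycle. Different Rabs mark different compartments, so the genes were put in 4 classes from textbook localisation: 17 of the early secretory route (ER to Golgi, and Golgi), 21 of endosomes and lysosomes, 13 of secretion and exocytosis, and 7 of other or less settled place. Some Rabs act on more than 1 compartment, and the classes give each a single place.

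The libraries held 31997922 (CB-5083) and 29273804 (DMSO) estimated counts. Levels are counts per 1000000 (CPM) after scaling by the trimmed mean of M values (TMM). Log2 ratios set the CB-5083 level over the DMSO level, each with 1 CPM added, and so understate the differences of low genes. A gene was called higher or lower at 2-fold on this scale with at least 5 CPM in 1 library. Folds are given without the added 1 CPM, with a 95% exact (Clopper-Pearson) interval that covers counting error only. Plain library totals lower every log2 ratio by about 0.34 at high levels, and values on that scale are given beside the calls that they change. Of the 8 epithelial colon markers, 6 had at least 1 CPM in both libraries, with a summed level of 1678 CPM with CB-5083 and 1121 CPM with DMSO, while VIL1 and CDX1 were at or near 0. The 6 markers of other cell types summed to 3.60 CPM with CB-5083 and 2.67 CPM with DMSO, almost all of it COL1A1, so the libraries carried epithelial transcripts. Of intestinal differentiation, only VIL1 and CDX1 were looked at. In such bulk libraries, fewer cells with a transcript and less of it per cell cannot be told apart.

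Of the 58 Rab genes, 36 reached 5 CPM in 1 library. With CB-5083, 3 of them were at least 2-fold higher (RAB5A, RAB1A and RAB33B), 2 were at least 2-fold lower (RAB3D and RAB7L1) and 31 were neither. Among all 9543 genes past the same filter, 7.22% were called higher and 4.91% lower, so the Rab shares of 8.33% and 5.56% were close to the background. The median log2 ratio of the 36 was 0.14, beside 0.09 for all genes. At a lower threshold of 1.5-fold, 9 Rab genes were higher (25%, against 17.4% of all genes) and 4 were lower (11.1%, against 12.5%). With library totals, 1 was 2-fold higher and 4 were lower, where the shares over all genes were 3.86% and 10.3%. As a family, then, Rab genes were called about as often as other genes, and the values below concern which of them stood where.

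The classes lay in the order early secretory, endosomal, secretory. Past the filter, the 9 early secretory genes had a median log2 ratio of 0.55, the 15 endosomal genes 0.19 and the 9 secretory genes -0.09. At 1.5-fold, 4 early secretory genes were higher and 2 lower, 4 endosomal genes were higher and none lower, and 1 secretory gene was higher and 1 lower. The shares were 44.4% and 22.2% (early secretory), 26.7% and 0% (endosomal) and 11.1% each (secretory), beside 17.4% higher and 12.5% lower over all genes, on counts of 9 to 15 genes a class. The early secretory genes had log2 ratios between -1.23 and 1.12, whereas no endosomal gene lay below -0.08. Restricting each class to the members whose compartment is best settled left medians of 0.58, 0.21 and -0.03. The gap between early secretory and secretory medians was 0.64. Another scaling shifts nearly all genes alike and so hardly bears on it. It was 0.61 with the best settled members, 0.67 and 0.61 with filters of 1 and 10 CPM, and 0.65 and 0.61 with pseudocounts of 0.1 and 5 CPM. It was 0.22 with no filter on low values, where the early secretory median (0.12) was no longer above the endosomal one (0.13). With library totals the medians were 0.21 (early secretory), -0.16 (endosomal) and -0.41 (secretory), so the order is the same but the endosomal direction is not.

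**Figure D1:**
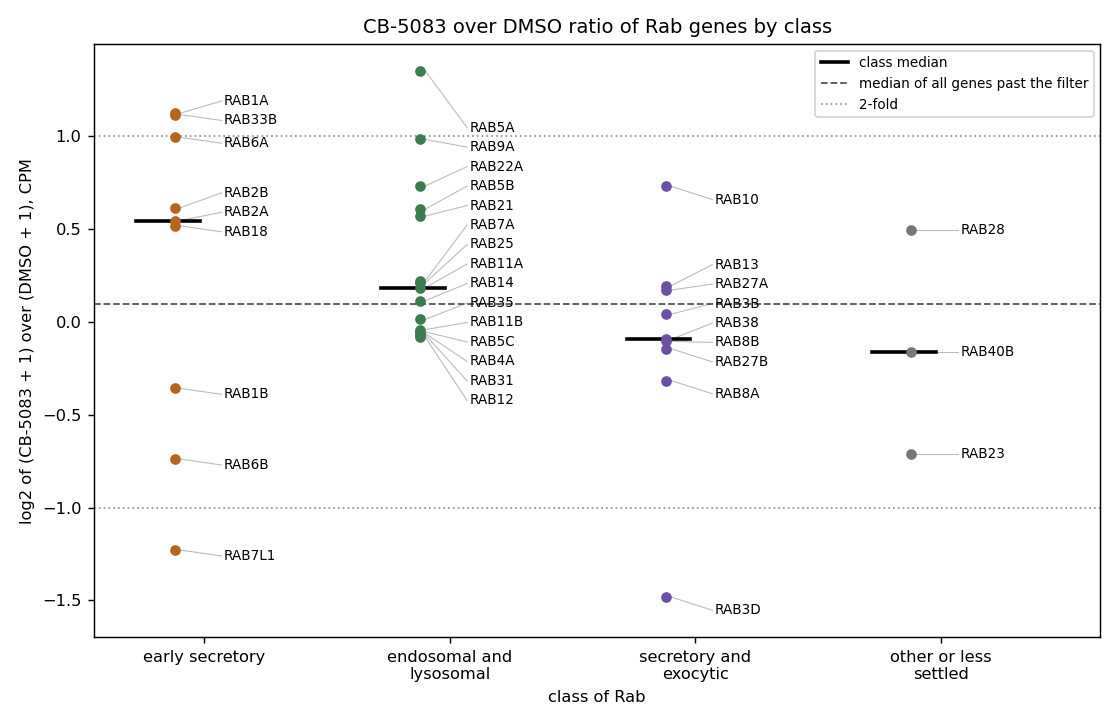
Each point is the log2 ratio of CB-5083 over DMSO (y axis, from CPM + 1) of 1 Rab gene past the 5 CPM filter, by class (x axis), with 1 library per treatment. The early secretory median (0.55) is the highest of the classes and the secretory median is -0.09; RAB5A stands alone above the 2-fold line among endosomal genes and RAB3D alone below it among secretory genes.

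RAB1A, which drives transport from the ER to the Golgi, had the highest level of any early secretory Rab. It was at 584 CPM with CB-5083 and 267 CPM with DMSO (16612 and 8815 estimated counts), a fold of 2.19 (2.13 to 2.24). The gene lies on chromosome 2 from 65313987 to 65357435 (hg19), where its span overlaps CEP68, which was at 7.79 CPM with CB-5083 and 21.4 CPM with DMSO, a lower level and the opposite direction. The log2 ratio of RAB1A was 1.12, and 0.78 with library totals, which is short of the threshold. Its paralogue RAB1B, of the same transport step, was at 14.8 CPM with CB-5083 and 19.3 CPM with DMSO, 1.30-fold lower (1.15 to 1.47). The pair therefore lay on opposite sides of equality on this scale.

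RAB6A, the main Rab of retrograde transport through the Golgi and back to the ER, was at 477 CPM with CB-5083 and 238 CPM with DMSO, 1.998-fold higher (1.94 to 2.06). It stopped just under the threshold, at a log2 ratio of 0.996, and passed it at 1.01 with median-of-ratios scaling. Some of its reads cannot be told from those of RAB6C, a near-identical intronless copy, which was at 0.114 CPM with CB-5083 and 0.0243 CPM with DMSO. RAB6B, a paralogue best known from neurons, was at 4.26 CPM with CB-5083 and 7.77 CPM with DMSO, 1.82-fold lower (1.46 to 2.28). Its log2 ratio of -0.74 was -1.03 with library totals, past the threshold.

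RAB33B, a Golgi Rab that also binds the autophagy protein ATG16L1, was at 36.4 CPM with CB-5083 and 16.2 CPM with DMSO, 2.24-fold higher (2.02 to 2.49). Its log2 ratio of 1.12 was 0.79 with library totals and 0.96 with a pseudocount of 5 CPM, under the threshold in both. RAB30, another Golgi Rab, had the highest log2 ratio of all 58 genes, 1.41, but stayed under the filter. It was at 4.08 CPM with CB-5083 and 0.910 CPM with DMSO (116 against 30 estimated counts), a fold of 4.48 whose interval runs from 2.98 to 6.94.

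RAB2A and RAB2B, which act between the Golgi and the ER, had like ratios. RAB2A was at 255 CPM with CB-5083 and 174 CPM with DMSO (1.46-fold, 1.41 to 1.51). RAB2B was at 41.8 CPM with CB-5083 and 26.9 CPM with DMSO (1.55-fold, 1.42 to 1.69). RAB18, a Rab of the ER and lipid droplets, was at 206 CPM with CB-5083 and 143 CPM with DMSO, a log2 ratio of 0.52. All 3 stayed above 0 with library totals, at log2 ratios between 0.18 and 0.28.

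RAB7L1, now named RAB29, is a Rab of the trans-Golgi network and a partner of the kinase LRRK2. It was at 18.02 CPM with CB-5083 and 43.5 CPM with DMSO, 2.42-fold lower (2.18 to 2.68), and was called lower under every scaling and pseudocount tried. RAB36, a Golgi Rab, was under the filter at 1.52 CPM with CB-5083 and 2.61 CPM with DMSO. RAB43 was at 0.0834 CPM with CB-5083 and at 0 with DMSO, but the read-through gene ISY1-RAB43, which shares its exons, was at 7.92 CPM with CB-5083 and 4.02 CPM with DMSO, so its own value is uncertain. The other 5 early secretory genes (RAB6C, RAB19, RAB33A, RAB34 and RAB41) were below 0.12 CPM in both libraries, where a value of 0 allows up to 3 counts, or 0.106 CPM with CB-5083 and 0.0910 CPM with DMSO.

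**Figure D2:**
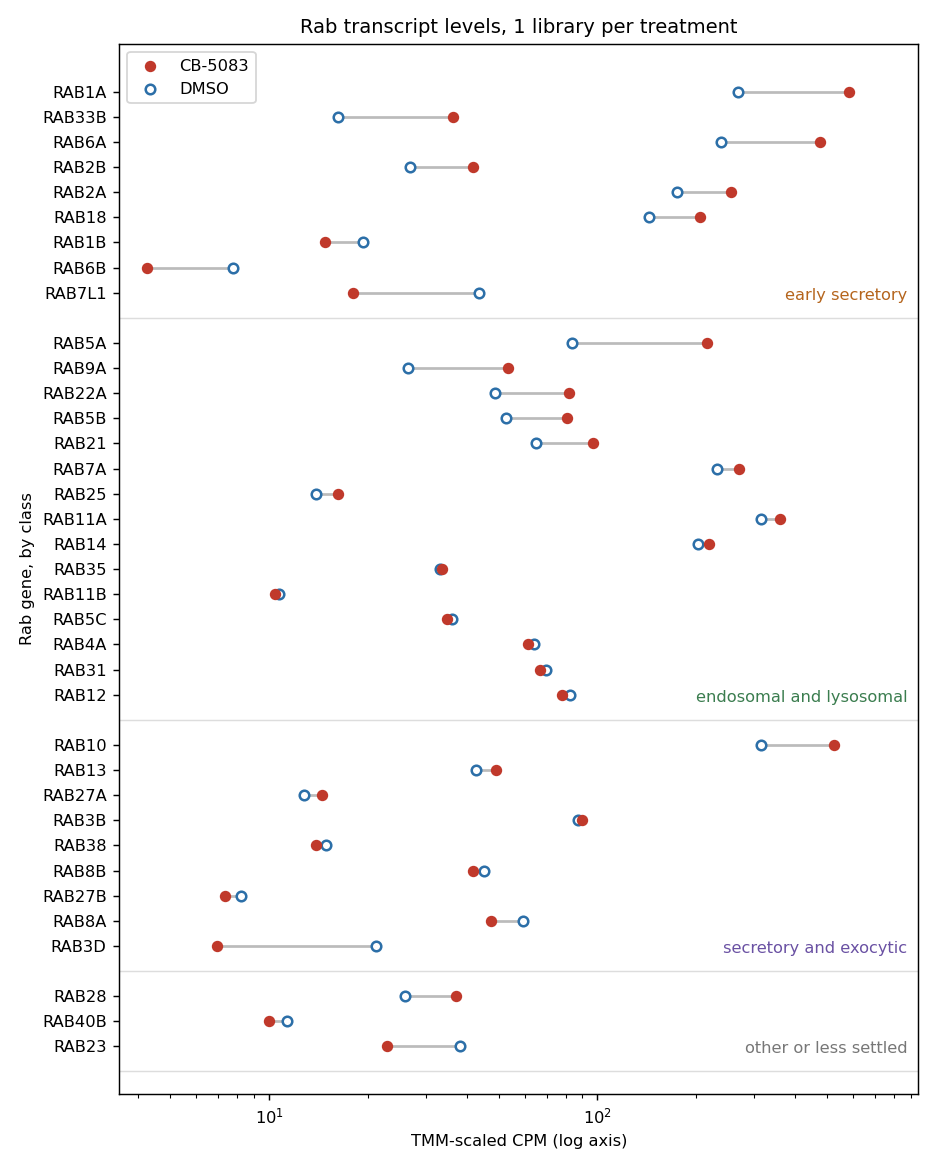
Levels of the 36 Rab genes past the filter in TMM-scaled CPM (log x axis), by class, with CB-5083 as filled and DMSO as open points, 1 library each. RAB1A (584 against 267 CPM) and RAB6A (477 against 238 CPM) are wide pairs at high level, RAB3D (6.93 against 21.1 CPM) and RAB7L1 (18.02 against 43.5 CPM) wide pairs in the other direction, and most endosomal and secretory pairs nearly coincide.

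RAB5A, which controls fusion of early endosomes, had the highest ratio of the genes past the filter. It was at 216 CPM with CB-5083 and 83.8 CPM with DMSO, 2.57-fold higher (2.46 to 2.69), and it ranked 365 of 9543 genes from the highest ratio. With a log2 ratio of 1.35, and 1.01 with library totals, it was the only Rab gene called higher under each of the 3 other scalings and both other pseudocounts. RAB5B was at 81.0 CPM with CB-5083 and 52.8 CPM with DMSO (1.53-fold, 1.44 to 1.63). RAB5C was at 34.8 CPM with CB-5083 and 36.1 CPM with DMSO, an interval of 0.884 to 1.05 that includes equality. The 3 genes encode closely related proteins of the same compartment, and their ratios ran from one end of the endosomal class nearly to the other.

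The sequence before the start of RAB5A, the gene called higher with the highest ratio, is shown with that of RAB3D, the gene called lower with the lowest, because both lie in RefSeq's promoter table (GRCh38.p14). Each line gives the 250 bases before the start, with any match to a searched motif in capitals.
RAB5A, chr3:19946847-19947096, plus strand: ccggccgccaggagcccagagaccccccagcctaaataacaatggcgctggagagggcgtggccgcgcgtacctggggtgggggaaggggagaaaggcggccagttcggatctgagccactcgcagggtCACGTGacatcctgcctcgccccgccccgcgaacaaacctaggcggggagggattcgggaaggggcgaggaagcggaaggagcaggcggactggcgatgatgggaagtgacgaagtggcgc
RAB3D, chr19:11339658-11339907, minus strand: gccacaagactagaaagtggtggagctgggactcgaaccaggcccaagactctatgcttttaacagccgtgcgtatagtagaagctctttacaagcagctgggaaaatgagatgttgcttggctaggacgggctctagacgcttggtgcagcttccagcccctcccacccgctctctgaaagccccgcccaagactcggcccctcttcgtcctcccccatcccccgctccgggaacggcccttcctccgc
The capitals in RAB5A mark the E-box core CACGTG, the centre of the element read by the lysosomal factor TFEB and also by other factors, 121 bases before the start. RAB3D holds no match. The GC content of the stretch was 67.6% for RAB5A and 59.6% for RAB3D, beside a median of 58.0% over 35116 promoter windows.

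The motifs were searched on both strands in windows of 250 bases before to 50 after the start, for the 47 Rab genes that have 1 or more. The other 11, with RAB1A, RAB33B and RAB2A among them, have no window and were not searched. The ER stress element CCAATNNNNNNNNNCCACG was in none of the 47, nor was its variant (ATTGG, any base, then CCACG). Of all 27305 genes with a window, 0.0916% held the element and 0.0696% the variant. At such low shares, finding none among 47 genes says little about Rab genes. The unfolded protein response core TGACGTG was in 2 Rab genes (4.26%, against 2.40% of all genes), RAB27A and RAB3A. The ATF4 element TGATGNAA was in 1 (2.13%, against 4.46%), RAB28. CACGTG was in 6 (12.8%, against 8.77%): RAB5A, RAB7L1, RAB24, RAB21, RAB4A and RAB31. Within the UPRE core the letters ACGTG overlap those of the E-box. These 6 hold a gene called higher (RAB5A) and a gene called lower (RAB7L1), and matches to letters say nothing of binding.

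The other endosomal genes fell in a higher and an even set. RAB9A, of transport from late endosomes to the trans-Golgi network, was at 53.5 CPM with CB-5083 and 26.6 CPM with DMSO. Its fold was 2.01 (1.85 to 2.19), but its log2 ratio of 0.98 with the added 1 CPM fell short of the threshold, which it passed at 1.01 with a pseudocount of 0.1 CPM. RAB22A, a Rab of early endosomes, was at 81.8 CPM with CB-5083 and 48.8 CPM with DMSO (1.68-fold, 1.57 to 1.79). RAB21, which sorts integrins at early endosomes, was at 97.2 CPM with CB-5083 and 65.1 CPM with DMSO (1.49-fold, 1.41 to 1.58).

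The even set held the abundant housekeeping Rabs of this class. RAB7A, of late endosomes and lysosomes, was at 269 CPM with CB-5083 and 231 CPM with DMSO (log2 ratio 0.22). RAB11A, of recycling endosomes, was at 359 CPM with CB-5083 and 315 CPM with DMSO (log2 ratio 0.19). RAB14, which works between the trans-Golgi network and endosomes, was at 219 CPM with CB-5083 and 202 CPM with DMSO (log2 ratio 0.12). All 3 log2 ratios are between -0.12 and -0.22 with library totals, so their direction depends on the scaling. RAB4A, RAB5C, RAB11B, RAB12, RAB25, RAB31 and RAB35, of recycling and sorting endosomes, had log2 ratios between -0.08 and 0.21.

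Of the endosomal genes under the filter, RAB24, which is tied to autophagy, was at 2.36 CPM with CB-5083 and 1.24 CPM with DMSO, 1.89-fold higher (1.27 to 2.87). RAB20 was at 1.196 CPM with CB-5083 and 3.61 CPM with DMSO, 3.02-fold lower (2.05 to 4.56). RAB4B, RAB15 and RAB17 had between 1.74 and 4.36 CPM with log2 ratios between 0.003 and 0.21, and RAB9B had about 1 estimated count in each library. Some endosomal genes have uncertain values because another gene with over 1 CPM overlaps their span, and whether the counting used strand is not stated. SPHAR lies over RAB4A (9.72 CPM with CB-5083 and 14.4 CPM with DMSO), C5orf25 over RAB24 (10.9 CPM with CB-5083 and 19.2 CPM with DMSO), GSN over RAB14 (6.16 CPM with CB-5083 and 7.01 CPM with DMSO) and CHURC1-FNTB over RAB15 (16.7 CPM with CB-5083 and 15.6 CPM with DMSO). EGLN2 lies over RAB4B (2.55 CPM with CB-5083 and 2.61 CPM with DMSO) and BX647356 over RAB11B (1.197 CPM with CB-5083 and 0.728 CPM with DMSO).

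Among the secretory genes, RAB10 stood apart as the abundant and higher one. RAB10, which serves exocytic delivery to the plasma membrane, was at 524 CPM with CB-5083 and 315 CPM with DMSO, 1.66-fold higher (1.62 to 1.71), and its log2 ratio of 0.73 was 0.39 with library totals. RAB8A and RAB8B, its relatives in exocytosis and cilia, were not higher. RAB8A was at 47.5 CPM with CB-5083 and 59.3 CPM with DMSO, and RAB8B at 41.9 CPM with CB-5083 and 45.1 CPM with DMSO, log2 ratios of -0.31 and -0.10. RAB13, a Rab of tight junctions, was at 49.0 CPM with CB-5083 and 42.7 CPM with DMSO (log2 ratio 0.20).

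The RAB3 group, Rabs of regulated exocytosis, held the lowest ratio of the 36. RAB3D, known from secretory granules of exocrine cells, was at 6.93 CPM with CB-5083 and 21.1 CPM with DMSO, 3.05-fold lower (2.60 to 3.59), and was called lower under every scaling and pseudocount tried. RAB3B, the most abundant of the group, was at 89.9 CPM with CB-5083 and 87.3 CPM with DMSO (log2 ratio 0.04). RAB3A, the Rab of synaptic vesicles, was under the filter at 0.246 CPM with CB-5083 and 1.21 CPM with DMSO, 4.93-fold lower, with the interval 2.18 to 13.04. RAB27A and RAB27B, which dock secretory granules, melanosomes and exosome-bearing endosomes, had log2 ratios of 0.17 and -0.14. RAB38, which brings enzymes to melanosomes, was at 13.9 CPM with CB-5083 and 14.9 CPM with DMSO.

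RAB26 and RAB37, also placed on secretory granules, had few counts. RAB26 was at 0.211 CPM with CB-5083 and 1.82 CPM with DMSO, 8.62-fold lower, but on 6 against 60 estimated counts the interval ran from 3.74 to 24.4. RAB37 was at 1.13 CPM with CB-5083 and 2.70 CPM with DMSO, 2.40-fold lower (1.59 to 3.71). These genes stood under the 5 CPM filter, which leaves them out of the counts above. With a filter of 1 CPM, RAB26 and RAB20 join the lower genes and RAB30 the higher ones. That makes 4 lower and 4 higher of 46 (8.70% each), beside 5.29% lower and 6.09% higher of all genes at that filter, which is no result about the Rab genes.

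Of the genes of less settled place, RAB23, a brake on Hedgehog signalling in cilia, was at 22.9 CPM with CB-5083 and 38.2 CPM with DMSO, 1.67-fold lower (1.51 to 1.83), and was called lower with library totals (log2 ratio -1.04). RAB28, of cilia and photoreceptors, was at 37.0 CPM with CB-5083 and 26.0 CPM with DMSO (log2 ratio 0.49). RAB40B, whose product carries a SOCS box that recruits a ubiquitin ligase, was at 10.03 CPM with CB-5083 and 11.3 CPM with DMSO. RAB40C, RAB42, RAB39A and RAB40A were below 1 CPM in both libraries. In all, 22 Rab genes were under the filter and 12 of them under 1 CPM, and RAB40A, RAB41 and RAB32 were at 0 in both libraries.

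Ratios within a subfamily do not depend on how the libraries are scaled, since both genes come from the same library. Shares and ratios in each library are of counts, which also follow transcript length. Among 8 subfamilies with at least 2 genes past the filter, the ratio between the 2 genes with most counts differed most in RAB6, RAB3, RAB1 and RAB5. By share of counts, the largest differences among the leading genes were those of RAB5A and of RAB3B. RAB27A differed more than RAB1A or RAB6A, which hold nearly all counts of their subfamilies. The intervals of RAB27A overlap between the libraries, however, and those of RAB1A and RAB6A do not. RAB5A made 65.1% of RAB5 estimated counts with CB-5083 (64.1 to 66.0) and 48.5% with DMSO (47.2 to 49.8). RAB5C made 10.5% with CB-5083 and 20.9% with DMSO.

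RAB3D made 7.14% of RAB3 counts with CB-5083 (6.21 to 8.17) and 19.3% with DMSO (18.0 to 20.6). Per kb of transcript its share was 18.5% with CB-5083 and 39.5% with DMSO. In counts, RAB1A outnumbered RAB1B 39.4 to 1 with CB-5083 and 13.9 to 1 with DMSO. RAB6A outnumbered RAB6B 112 to 1 with CB-5083 and 30.7 to 1 with DMSO, also in counts. In RAB1, RAB5 and RAB6 the gene with most counts in the DMSO library thus had a larger share in the CB-5083 library, and in RAB3 so did RAB3B, at 92.6% against 79.6%.

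In the remaining subfamilies the ratio between the genes differed by less. RAB2A made 85.9% of RAB2 counts with CB-5083 (85.2 to 86.7) and 86.6% with DMSO (85.8 to 87.4), intervals that overlap. RAB11A made 97.2% with CB-5083 (96.8 to 97.5) and 96.7% with DMSO (96.4 to 97.0), which also overlap. RAB8A made 53.2% with CB-5083 (51.2 to 55.1) and 56.8% with DMSO (55.2 to 58.5). RAB27A made 66.3% with CB-5083 (62.4 to 70.0) and 60.8% with DMSO (57.0 to 64.4), intervals that overlap. Per kb of transcript it made 86.4% with CB-5083 and 83.4% with DMSO. In RAB8 the major gene had the smaller share with CB-5083, against the direction in RAB1, RAB5 and RAB6.

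**Figure D3:**
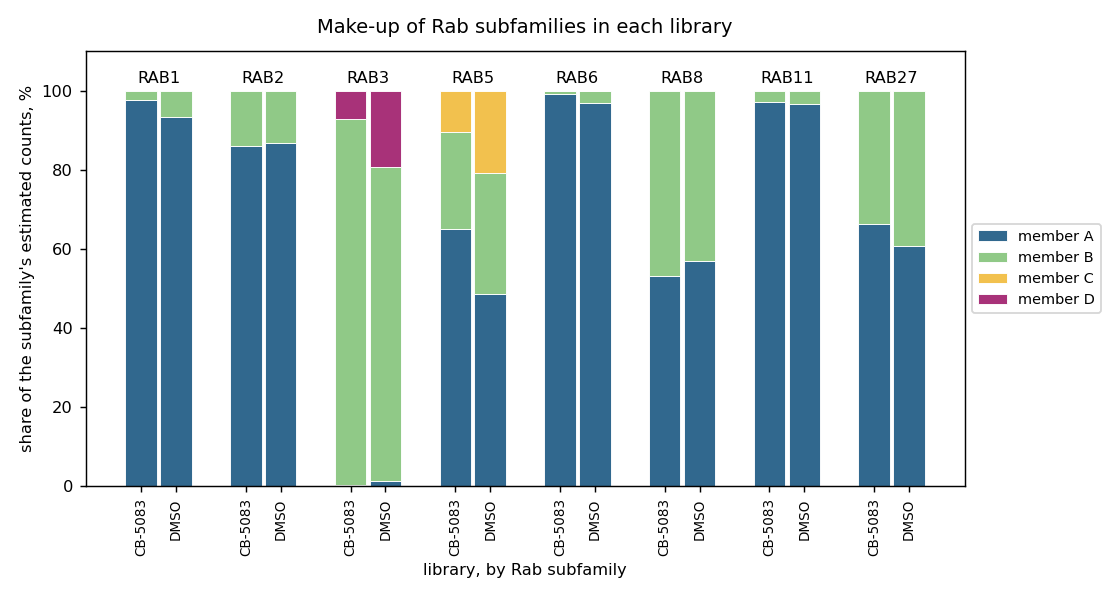
Stacked bars give each gene's share (y axis, %) of the estimated counts of its Rab subfamily, CB-5083 left of DMSO, 1 library each; colours are the letters of the gene names. RAB5A takes 65.1% of RAB5 counts with CB-5083 and 48.5% with DMSO and RAB3D 7.14% against 19.3%, while the RAB2 and RAB11 bars hardly differ.

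Rab genes with more RNA tended to have higher ratios, though the mean level used for this holds both libraries and so the ratio itself. All 9 Rab genes with a mean of at least 100 CPM had a log2 ratio above 0 (median 0.55), against 12 of 27 below that level (median -0.05). With library totals RAB7A, RAB11A and RAB14 of the 9 were below 0. RAB5A reaches that level only through the CB-5083 library. By the DMSO level alone, an alternative chosen after seeing the data, all 8 Rab genes of at least 100 CPM were above 0 (median 0.53), against 13 of 28 below it (median -0.05), and rho was 0.42 for Rab genes and 0.16 for all genes. Among all genes, 78.4% of the 2157 with a mean of at least 100 CPM were above 0 (median 0.30) and 51.2% of the rest (median 0.02). Across the 36 Rab genes Spearman's rho between ratio and mean level was 0.57 and Pearson's r with log2 level was 0.53, and rho was 0.33 across all genes. The points share the same pair of libraries, and the part of level in the class medians was not tested.

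Within the 9 abundant genes the classes can be set side by side, though the mean level that picks them holds the ratio itself. The 4 early secretory genes RAB1A, RAB6A, RAB2A and RAB18 had a median log2 ratio of 0.77 and none was below 0.52. The 4 endosomal genes had a median of 0.20, made of RAB5A at 1.35 and RAB7A, RAB11A and RAB14 between 0.12 and 0.22. By the DMSO level alone RAB5A (83.8 CPM) drops out, which leaves RAB7A, RAB11A and RAB14, while the 4 early secretory genes stay. RAB10 was the only secretory gene. Transcript length had little relation to the ratio, with a rho of -0.07 across the 36 Rab genes and -0.04 across 8860 genes with a length.

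**Figure D4:**
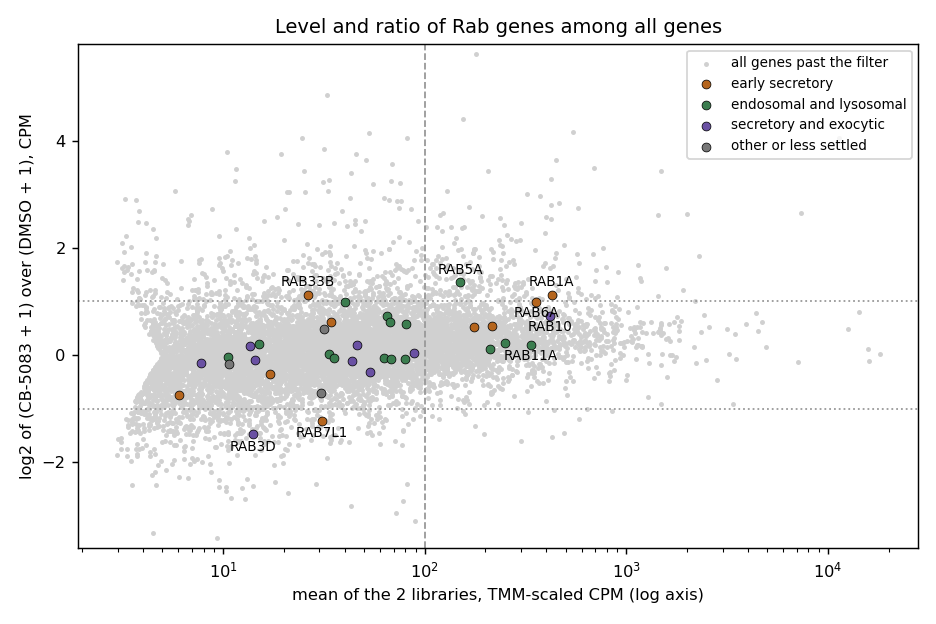
The log2 ratio of CB-5083 over DMSO (y axis) against the mean level of the 2 libraries (log x axis, TMM-scaled CPM) for all 9543 genes past the filter (grey) and the 36 Rab genes by class. Right of the dashed line at 100 CPM all 9 Rab genes lie above 0 (RAB7A, RAB11A and RAB14 would not with library totals), and the dotted lines mark 2-fold.

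Summed over all 58 genes, Rab transcripts were at 4200.4 CPM with CB-5083 and 2979 CPM with DMSO after TMM scaling, a ratio of 1.41. Without that scaling they made 0.373% (CB-5083) and 0.335% (DMSO) of all estimated counts, so the size of the difference depends on the scaling. Early secretory Rabs made 39.1% of the Rab counts with CB-5083 and 31.6% with DMSO. Endosomal Rabs made 40.2% with CB-5083 and 45.3% with DMSO, and secretory Rabs 18.97% with CB-5083 and 20.55% with DMSO. These shares are free of the scaling between libraries.

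To compare levels between genes, CPM were divided by transcript length. RAB1A led in both libraries, at 321 CPM per kb with CB-5083 and 147 CPM per kb with DMSO. RAB6A came next, at 228 CPM per kb with CB-5083 and 114 CPM per kb with DMSO. The places after them were held by RAB10, RAB7A, RAB11A and RAB2A in the CB-5083 library (148 to 104 CPM per kb) and by RAB7A, RAB11A, RAB10 and RAB2A in the DMSO library (103 to 71.1 CPM per kb). RAB5A was seventh with CB-5083 (85.0 CPM per kb), where RAB14 was with DMSO (48.8 CPM per kb). The top 7 genes carried 70.04% of Rab transcripts per kb with CB-5083 and 61.1% with DMSO.

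The regulators and effectors of Rabs were followed in 5 lists of 151 genes, of which 111 passed the filter. With CB-5083, 10 were higher and 2 lower (9.01% and 1.80%, against 7.22% and 4.91% of all genes), with a median log2 ratio of 0.17. The balance turned round with library totals, where 3 were higher and 8 lower (2.70% and 7.21%, against 3.86% and 10.3% of all genes) and the median was -0.17. Of the 37 effectors past the filter, 6 were higher (16.2%) and 31 were not called in either direction, and the median was 0.29.

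Golgi tethers were among these effectors. USO1 (p115), the tether that RAB1 recruits to ER-derived vesicles, was at 514 CPM with CB-5083 and 250 CPM with DMSO (2.06-fold, 2.003 to 2.115). GOLGA2 (GM130), its partner on the cis-Golgi, was at 63.6 CPM with CB-5083 and 24.5 CPM with DMSO (2.59-fold, 2.39 to 2.82), and GOLGA5 (golgin-84), a RAB1-binding golgin, was at 119.9 CPM with CB-5083 and 57.7 CPM with DMSO (2.08-fold, 1.96 to 2.197). The other higher effectors belong to other routes. EXPH5, a RAB27 effector, was at 88.7 CPM with CB-5083 and 22.3 CPM with DMSO (3.98-fold, 3.67 to 4.33). MICALL1, of recycling endosomes, was 2.66-fold higher (2.16 to 3.30). It was at 10.6 CPM with CB-5083 and 3.975 CPM with DMSO, past the filter only through the CB-5083 library. OPTN, a RAB8 effector and autophagy receptor, was 2.17-fold higher (1.96 to 2.40). With library totals only EXPH5 and GOLGA2 of these stayed past the threshold, at log2 ratios of 1.61 and 1.01. USO1 (0.70), GOLGA5 (0.70), MICALL1 (0.93) and OPTN (0.74) fell short of it. On that scale KIF20A, a kinesin that binds RAB6, was called lower (-1.06).

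Exchange factors other than the TRAPP complexes gave 3 higher, 1 lower and 21 neither of 25 (12% and 4%, against 7.22% and 4.91% of all genes). DENND2C, a RAB9 exchange factor, was at 12.5 CPM with CB-5083 and 3.94 CPM with DMSO (3.18-fold, 2.59 to 3.91). MON1B, a subunit of the MON1-CCZ1 exchange factor of RAB7, was at 11.6 CPM with CB-5083 and 4.76 CPM with DMSO (2.44-fold, 2.01 to 2.97). DENND2C and MON1B thus passed the 5 CPM filter only through the CB-5083 library. RAB3IP (Rabin8), the exchange factor of RAB8, was 2.05-fold higher (1.92 to 2.19). With library totals DENND2C alone of the 3 stayed called (log2 ratio 1.16), MON1B being at 0.83 and RAB3IP at 0.68, and none was called with a pseudocount of 5 CPM. RABGEF1 (Rabex-5), an exchange factor of RAB5, was at 89.8 CPM with CB-5083 and 45.8 CPM with DMSO, a log2 ratio of 0.95. DENND5B was at 16.6 CPM with CB-5083 and 51.7 CPM with DMSO, 3.12-fold lower (2.82 to 3.46). By the mean of both libraries GAPVD1, which acts on RAB5, had the highest level, at 140 CPM with CB-5083 and 98.7 CPM with DMSO. CCZ1, which has a near-identical copy, was above it in the DMSO library (121 CPM with CB-5083 and 105 CPM with DMSO).

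TRAPP subunits load RAB1 and RAB11. Of 12 past the filter, 1 was higher, none lower and 11 neither (8.33% and 0%, against 7.22% and 4.91% of all genes). That one was TRAPPC6B, at 84.7 CPM with CB-5083 and 38.8 CPM with DMSO (2.18-fold, 2.04 to 2.34), though short of the threshold with library totals (log2 ratio 0.77), where TRAPPC12 was called lower (-1.08). TRAPPC8, the most expressed, was at 91.6 CPM with CB-5083 and 81.2 CPM with DMSO. GTPase-activating genes gave none higher (against 7.22% of all genes), 1 lower (3.23%, against 4.91%) and 30 neither of 31 (median 0.14). TBC1D24, a TBC-domain protein, was 2.19-fold lower (1.92 to 2.50). With library totals, where 10.3% of all genes were lower, 4 were lower, TBC1D9B (-1.27), TBC1D2B (-1.21) and GRTP1 (-1.13) being added. RAB3GAP1, highest by the mean of both libraries, was at 158 CPM with CB-5083 and 82.4 CPM with DMSO (log2 ratio 0.93). TBC1D4 was above it in the DMSO library, at 75.05 CPM with CB-5083 and 114.9 CPM with DMSO. The product of RAB3GAP1 is known both to switch off RAB3 and to load RAB18 together with RAB3GAP2 (0.71).

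None of the 6 prenylation and recycling genes past the filter reached 2-fold, but CHML did with library totals (log2 ratio -1.22). GDI2, the main Rab carrier, was the most expressed, at 502 CPM with CB-5083 and 360.2 CPM with DMSO (log2 ratio 0.48). RABGGTB, a subunit of the enzyme that attaches the lipid anchors, was at 473 CPM with CB-5083 and 260.1 CPM with DMSO (log2 ratio 0.86). CHM and CHML, the paralogous escorts that present Rabs to this enzyme, lay apart. CHM was at 54.0 CPM with CB-5083 and 40.6 CPM with DMSO (log2 ratio 0.40), and CHML at 26.0 CPM with CB-5083 and 48.8 CPM with DMSO (log2 ratio -0.88).

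**Figure D5:**
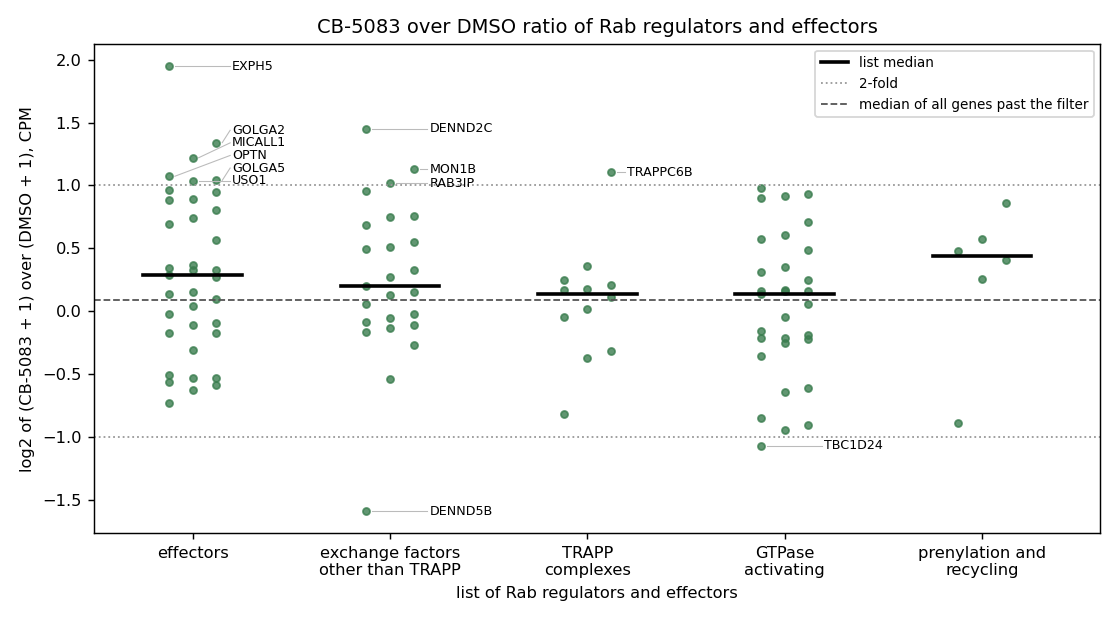
Each point is the log2 ratio of CB-5083 over DMSO (y axis, from CPM + 1, 1 library each) of a Rab regulator or effector past the filter, by list (x axis), with the list medians as bars and genes past 2-fold named. The effectors hold 6 of the 10 genes above the upper dotted line, and no effector lies below the lower one.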

How the data were processed

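Polyadenylated RNA of HCT116 cells was sequenced in 1 library for CB-5083 and 1 for DMSO. RSEM 1.2.0 and hg19 are named in the submitters' processing notes. Which aligner was used is not given in these sources. The deposited signal values were scaled by the authors from estimated counts of genes, so that the 75th percentile of a library is near 1000 (999.89 with CB-5083 and 999.73 with DMSO). Low values are multiples of a step, 1.175 for CB-5083 and 1.079 for DMSO, whose division gave back estimated counts, of which 53.7% and 54.6% of those above 0 were whole within 0.02. The authors' deposited log2 ratio equals log2 of CB-5083 over DMSO without a pseudocount.

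CPM used TMM factors of 0.888 (CB-5083) and 1.126 (DMSO), with trims of 30% and 5%. The added value was 1 CPM and the filter 5 CPM in 1 library. 1 row without a value was left out. The design had foreseen estimated counts, and no test was possible with 1 library per group. Each fold has an exact Clopper-Pearson interval at 95%. The Rab genes, classes, lists and alternatives were chosen with earlier results of these data known, so none is independent support. Fold and interval are given for 12 Rab genes at the top and 8 at the bottom of the log2 ratios, and of each regulator list the genes past 2-fold and the most expressed one are named. RAB1B, RAB2A and RAB5C (intervals), low Rab genes with their own values, RABGEF1, RAB3GAP2, RABGGTB, CHM, CHML, CCZ1, TBC1D4 and the regulators called only with library totals were added after their values were seen. Of the 151 regulators and effectors, 142 were matched by symbol and 8 by RefSeq accession. Rab coordinates are those of the files (hg19). Transcript lengths came from GENCODE and promoters from RefSeq (GRCh38.p14), with no coordinates mixed. The scripts were tested on simulated data. Scripts ran in Python 3.11.15 with scipy 1.17.1, numpy 2.4.6, pandas 2.3.3 and, for plots, matplotlib 3.10.9.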

Additional observations from a re-analysis of the deposited data

How the results depend on the processing

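No paired analysis was possible because each treatment is 1 library, and for the same reason no library could be left out. With library totals in place of TMM, the Rab genes gave 1 higher and 4 lower in place of 3 and 2. Their median log2 ratio was -0.19 in place of 0.14. The endosomal median was -0.16, the secretory one -0.41 and the early secretory one 0.21. RAB1A (0.78) and RAB33B (0.79) were no longer called, and RAB23 (-1.04) and RAB6B (-1.03) were. On that scale 3.86% of all genes were higher and 10.3% lower. Of the regulators and effectors, 2 effectors, 1 exchange factor and 0 TRAPP subunits were higher. Lower were 4 GTPase-activating genes, 1 TRAPP subunit, 1 effector, 1 exchange factor and 1 prenylation gene. The authors' upper quartile scaling gave 3 higher effectors and 2 lower GTPase-activating genes. A pseudocount of 5 CPM gave 3 higher effectors, 0 higher exchange factors and 0 lower GTPase-activating genes. The share over all genes was not computed for either of these settings, so these counts are no result about the lists. A filter of 1 CPM gave 4 lower Rab genes of 46 (8.70%, against 5.29% of all genes), and no filter also gave 4. At 1.5-fold, 9 Rab genes were higher and 4 lower (25% and 11.1%, against 17.4% and 12.5% of all genes). The same threshold gave 13 higher and 2 lower of 37 effectors (35.1% and 5.41%). Of 25 exchange factors, 7 were higher and 1 lower (28% and 4%). Of 31 GTPase-activating genes, 6 were higher and 6 lower (19.4% each). Of 12 TRAPP subunits, 1 was higher and 1 lower (8.33% each), and of 6 prenylation genes 1 was higher and 1 lower (16.7% each). No Rab gene called in either direction changed sign under any scaling or pseudocount, but that could not have happened. The scalings moved log2 ratios by about 0.34 or less, and a pseudocount added to both levels keeps the sign. Among all 58 Rab genes, 13 changed sign with library totals. The 5 calls were the same with the authors' deposited log2 ratio, which comes from the same 2 libraries. Core classes and a filter of 10 CPM kept the order of the class medians. Median-of-ratios scaling did too, but it shifts nearly all genes alike and so could hardly change the order. With no filter the early secretory median (0.12) was not above the endosomal one (0.13). Depth limits the genes under 5 CPM most: RAB26 rests on 6 estimated counts with CB-5083 and 60 with DMSO.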
